A study of Mus musculus with 4 samples.

Results

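The genes Ifit1, Ifitm3, Oasl2 and Ifih1 were followed over the 4 arrays of a study of EML cells. These are blood progenitor cells of the mouse that need stem cell factor (SCF) to grow; SCF binds and activates KIT, a tyrosine kinase receptor. The cells carried 1 of 2 KIT mutants found in mastocytosis: D816V, in the phosphotransferase domain of the kinase, or Del417-419insY, in the extracellular domain. Each mutant was introduced by retrovirus into EML cells, which were drug selected, grown on without added factor and sorted for KIT, so each mutant was 1 transduced population and no source used here says whether the parental KIT was still made. The groups were D816V with SCF at 250 ng/mL for 48 h, D816V without SCF, Del417-419insY with SCF at the same dose and time, and Del417-419insY without SCF, with 1 array each. The 4 genes were taken by symbol, as 4 of 6404 genes and 4 of 10861 probe sets, because they differed strongly between the mutants. Their mutant differences are therefore given as a description, with no test, and precision is limited by the number of arrays.

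Cells meet viral RNA with sensors in the cytosol, which switch on type I interferon genes. Secreted interferon then acts through its receptor and JAK kinases and raises a large set of interferon-stimulated genes. Ifih1 encodes MDA5, a helicase that senses long double-stranded RNA, and is itself a known interferon-stimulated gene. The other genes encode effectors: Ifit1 an RNA-binding protein that blocks translation of viral messages, Ifitm3 a membrane protein that hinders fusion of viruses in endosomes, and Oasl2 a member of the oligoadenylate synthetase family. Sensor and effectors are thus usually seen to rise together when interferon acts.

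The region before each start site is shown because the 4 genes belong to the same textbook response and yet split in direction here. Sequences are from RefSeq, build GRCm38.p6, 5′ to 3′ on the strand of the gene, and all 4 genes matched. Capitals mark matches to the core of the interferon-stimulated response element, taken here as GAAA, any 2 bases and GAAA again, or to TTCNNNGAA, the gamma-activated sequence, each searched on both strands. The 250 bases before each start were as follows.
Ifit1 (chr19:34640639-34640888, plus strand): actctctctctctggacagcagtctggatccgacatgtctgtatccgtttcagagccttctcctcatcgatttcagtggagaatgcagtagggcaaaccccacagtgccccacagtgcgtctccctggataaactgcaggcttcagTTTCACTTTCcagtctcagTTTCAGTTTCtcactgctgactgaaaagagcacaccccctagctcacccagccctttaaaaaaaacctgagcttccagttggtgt
Ifitm3 (chr7:141010745-141010994, minus strand): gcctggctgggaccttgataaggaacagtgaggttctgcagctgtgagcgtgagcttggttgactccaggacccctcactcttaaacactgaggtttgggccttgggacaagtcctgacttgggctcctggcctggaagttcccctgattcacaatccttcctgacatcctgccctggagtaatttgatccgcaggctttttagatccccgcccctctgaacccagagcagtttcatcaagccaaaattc
Oasl2 (chr5:114896684-114896933, plus strand): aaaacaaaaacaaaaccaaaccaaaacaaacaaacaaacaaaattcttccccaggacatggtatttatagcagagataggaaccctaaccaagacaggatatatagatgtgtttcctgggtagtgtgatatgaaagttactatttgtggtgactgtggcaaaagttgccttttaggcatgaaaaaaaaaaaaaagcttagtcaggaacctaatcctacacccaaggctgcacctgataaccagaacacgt
Ifih1 (chr2:62646256-62646505, minus strand): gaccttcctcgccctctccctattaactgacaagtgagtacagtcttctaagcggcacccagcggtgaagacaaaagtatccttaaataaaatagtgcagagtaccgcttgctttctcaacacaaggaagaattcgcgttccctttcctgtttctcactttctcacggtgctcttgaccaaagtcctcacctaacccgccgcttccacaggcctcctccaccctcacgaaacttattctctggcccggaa
Ifit1 was the one member with a match before its start, at 2 places that begin 104 and 85 bases upstream and read TTTCACTTTC and TTTCAGTTTC, the element on the opposite strand. Over 27025 promoters of the same length, 1 per gene, 3.04% held the response element core and 7.18% held TTCNNNGAA. When the 50 bases after the start were searched too, a window chosen after the sequences were seen, Ifitm3 and Ifih1 also had matches, and 3.49% and 8.47% of promoters did. Those sites lie within these 30 bases.
Ifitm3 (chr7:141010715-141010744, minus strand): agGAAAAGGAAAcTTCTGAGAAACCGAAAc
Ifih1 (chr2:62646206-62646235, minus strand): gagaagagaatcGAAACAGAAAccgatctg
In Ifitm3 the response element core begins at bases 3 and 20 after the start, and TTCNNNGAA begins at base 14 and shares its last bases with the later of them. In Ifih1 it begins at base 33. Oasl2 held neither string of letters in either window. A match is a string of letters and no measured binding site.

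The deposited log2 values are relative to a zero that each probe set has of its own and that no source used here explains. Differences between arrays can be read and levels of different genes cannot be compared. Array medians were -0.20 and -0.10 for D816V with and without SCF, and -0.05 and -0.02 for Del417-419insY. Each member had 1 probe set, so no further probe set could check it. A difference may stand for RNA per cell or for the share of cells that make it, which bulk RNA cannot tell apart.

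Ifitm3 had values of -0.03 and -0.11 in D816V cells with and without SCF, against -7.37 and -7.51 in Del417-419insY cells. Both D816V arrays lay far above both Del417-419insY arrays. The differences were 7.34 with SCF and 7.40 without it on the log2 scale, a mean of 166-fold. They put Ifitm3 at rank 3 of 6404 genes from the top. The mean was 66.8-fold at rank 4 after quantile normalization, but 198-fold at rank 1 after cyclic loess. Ifit1 had values of 4.37 and 4.11 in D816V cells with and without SCF, against 0.18 and -0.31 in Del417-419insY cells. Its differences of 4.19 and 4.42 averaged 19.8-fold, at rank 26, but 5.97-fold at rank 91 after cyclic loess and 11.6-fold at rank 35 after quantile normalization. Oasl2 had 4.18 and 4.26 in D816V cells with and without SCF, against -0.07 and 0.03 in Del417-419insY cells. Its differences of 4.25 and 4.22 averaged 18.8-fold, at rank 27, but 5.62-fold at rank 98 and 11.2-fold at rank 36 after the same scalings. No effector had D816V and Del417-419insY values that overlapped. The share of all genes without overlap was not counted, so nothing is read from this.

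Ifih1 ran the other way. It had values of 0.29 and -0.04 in D816V cells with and without SCF, against 3.24 and 2.62 in Del417-419insY cells. Its differences were -2.95 with SCF and -2.66 without it, so that its signal was on average 6.98-fold lower in D816V cells, at rank 22 from the bottom. After cyclic loess it was 14.0-fold lower, at rank 17, and after quantile normalization 12.3-fold lower, at rank 16. All 3 effectors were thus 2-fold or more higher with SCF, as were 6.34% of all genes, without SCF, as were 6.29%, and in both conditions, as were 5.15%. Ifih1 was 2-fold or more lower with SCF, as were 7.42% of all genes, without SCF, as were 4.18%, and in both, as were 3.78%. Since the genes had been chosen on these values, nothing is read from those shares. The gap between Ifih1 and the effector nearest to it was -7.13 with SCF, to Ifit1, and -6.88 without SCF, to Oasl2. To Ifitm3 it was -10.29 and -10.06. With 1 array per group no test of these gaps was made.

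**Figure D1:**
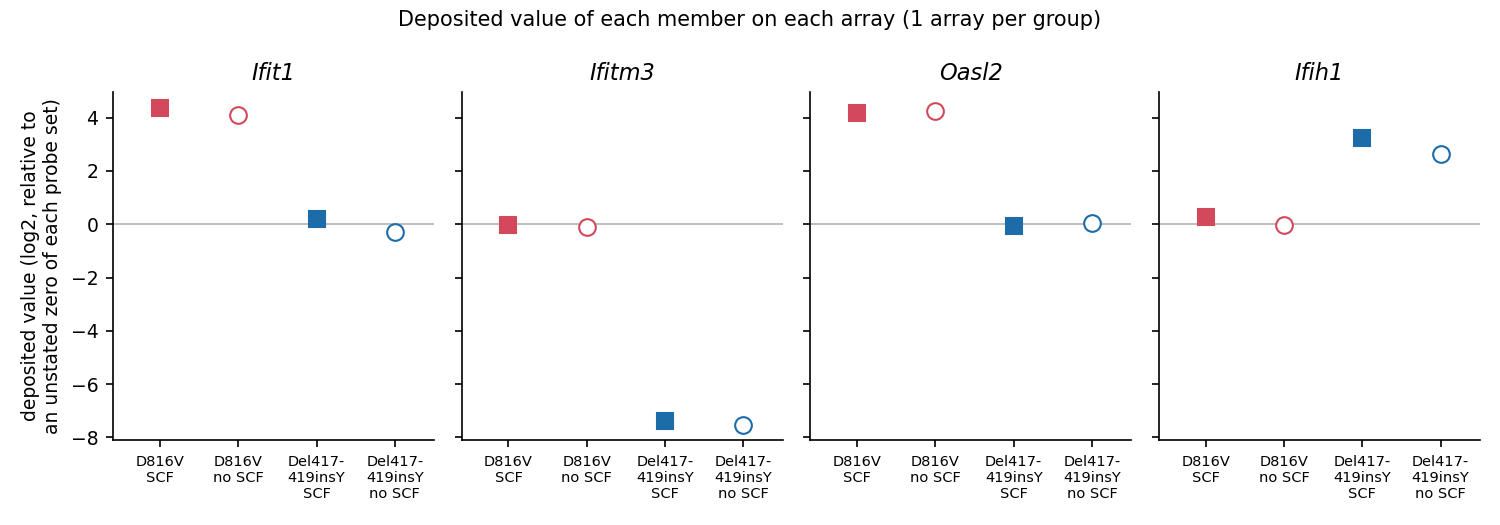
Deposited log2 value of Ifit1, Ifitm3, Oasl2 and Ifih1 (vertical axis, each relative to the unstated zero of its own probe set) on each of the 4 arrays (horizontal axis), red for D816V, blue for Del417-419insY, filled with SCF, open without. The effectors are higher on both D816V arrays, while Ifih1, at 0.29 and -0.04 on these, stands at 3.24 and 2.62 on the Del417-419insY arrays.

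The mutant difference of a gene was measured in each condition on separate arrays. Its change between conditions, with SCF minus without, was 0.02 for Oasl2, -0.06 for Ifitm3, -0.24 for Ifit1 and -0.29 for Ifih1. In size the median over all genes was 0.19, and 6.43% of genes changed less than Oasl2, 18.5% less than Ifitm3, 60.0% less than Ifit1 and 68.5% less than Ifih1. For all 4 members the change was small beside the mutant difference itself, but they were chosen for a large mutant difference.

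The side on which a gene left the zero of the table also differed among the members. Counted as near zero, a limit chosen after the values were seen, were groups with both arrays within 0.5 of it. Ifit1 and Oasl2 were near zero in Del417-419insY cells and high in D816V cells. Ifitm3 and Ifih1 were near zero in D816V cells, with Ifitm3 far below and Ifih1 above zero in Del417-419insY cells. Of the 20 antiviral effector genes that were 2-fold or more higher in D816V cells in both conditions, 13 had Del417-419insY near zero and 2 had D816V near zero, and these 2 were Ifitm3 and its neighbour Ifitm1. Ifit1 and Oasl2 were among the 13. Among all 330 genes as high in both conditions the counts were 104 and 45, and among the 242 as low in both they were 86 and 35, with Ifih1 among the 35. Since the members were kept in these counts and had been chosen on the mutant difference, nothing is read from the counts. What the zero stands for is not known, so no mutant can be called the changed one.

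The response to SCF was not used to choose the genes, and it was tested with limma on all 6404 genes, with mutant and SCF as additive terms and Benjamini-Hochberg adjustment. This fit has no replicate array and takes the difference between the SCF responses of the lines as error, so its p-values cover neither repeat cultures nor repeat transductions. Ifih1 had the highest SCF difference of the members, 0.32 in D816V and 0.61 in Del417-419insY cells, a mean of 0.47 (SE 0.13, limma adjusted p = 0.184). Ifit1 had 0.25 and 0.49, a mean of 0.37 (SE 0.13, limma adjusted p = 0.225). Both genes were thus higher with SCF on 1 array pair in each line, but neither passed the test. Ifitm3 had 0.08 and 0.15, a mean of 0.11 (SE 0.11, limma adjusted p = 0.618), and Oasl2 had -0.08 and -0.10, a mean of -0.09 (SE 0.11, limma adjusted p = 0.70). No member passed, as did 0.0% of all genes; limma called 0 genes for SCF, 1186 had an unadjusted p under 0.05, and other settings called between 0 and 256. No member reached a 2-fold SCF difference in either line, where 1.64% of genes did in D816V and 0.874% in Del417-419insY cells. The value of Ifih1 in Del417-419insY cells, 0.61, lay above the central 95% of genes there, which ran from -0.61 to 0.56.

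**Figure D2:**
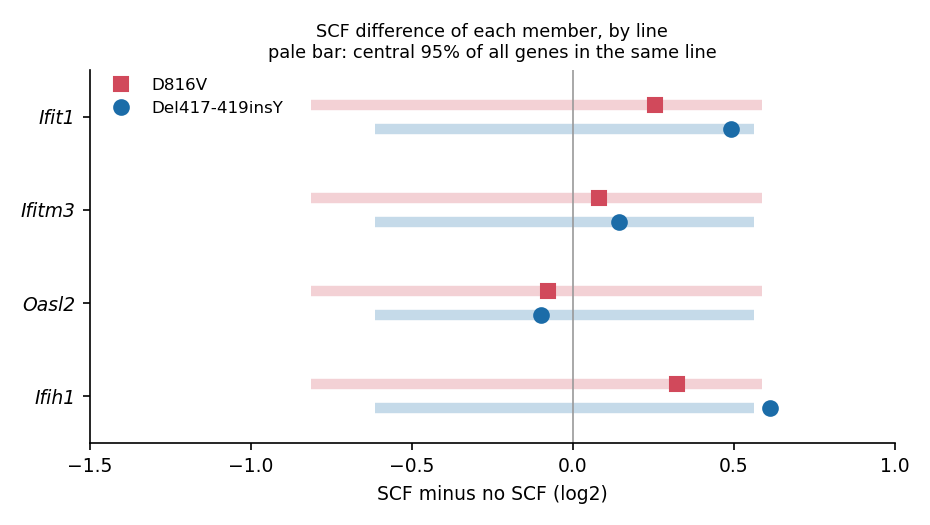
Log2 difference of the SCF array over the one without SCF (horizontal axis) for each member (rows), red squares for D816V and blue circles for Del417-419insY, 1 array pair each, with pale bars for the central 95% of all genes in the same line. Ifih1 in Del417-419insY cells, at 0.61, is the one point outside its bar, and Oasl2 is close to 0 in both lines.

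Next the other genes of the interferon system were set beside the members, in 7 lists by role that were drawn up with the interferon result of these arrays known. The lists held 86 genes with a value. In the same limma fit 17.9% of all genes were called higher and 24.7% lower in D816V cells. This balance turned with the scaling: with cyclic loess 25.4% were called higher and 19.7% lower, with quantiles matched 23.8% and 21.7%, and with medians centred 26.9% and 20.3%. As deposited the median difference over all genes was -0.14 with SCF and -0.08 without. The members are left out of the counts of calls that follow, since they were chosen on this difference. Of 30 other antiviral effectors 24 were called higher and none lower, with medians of 1.15 with SCF and 1.24 without. Of 6 sensors other than Ifih1 4 were called higher and none lower; Sting1 was called lower, as was the effector gene Zc3hav1, with the highest-mean probe set, and Sting1 also with a 25th percentile filter or an intensity trend in the prior. Pooled over the 7 lists 52 of 82 genes were called higher and 3 lower, the receptor genes Ifnar1, Ifnar2 and Il10rb, at -0.65, -0.62 and -0.56. As a description, Ifih1 was the 1 gene of the 86 whose mean difference was 2-fold or more downward.

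Among sensors, Ddx58, which encodes RIG-I, a sensor of short viral RNA with the same signalling partner as MDA5, had values of 1.59 and 1.13 in D816V cells with and without SCF, against -0.79 and -0.72 in Del417-419insY cells. Its mean difference was 2.12 (SE 0.16, limma adjusted p = 0.00103), so the RIG-I and MDA5 genes stood on opposite sides. Mavs, the adaptor that both sensors use, was higher by 0.87 (SE 0.14, limma adjusted p = 0.00875). Zbp1, a sensor of Z-form nucleic acid, was higher by 2.29 and the NOD-like receptor family gene Nlrc5, a regulator of MHC class I genes, by 2.14. Sting1 and Cgas, of the DNA sensing pathway, had -0.41 and -0.24 and did not pass (limma adjusted p = 0.0574 and 0.195).

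Close relatives of the effectors differed in size. Of the IFITM family Ifitm1 was 2.43-fold higher and Ifitm2 1.39-fold higher in D816V cells, against 166-fold for Ifitm3 beside them on the chromosome. Cross-hybridisation between these paralogs was not tested. Of the OAS family Oas3 was 16.8-fold higher and Oas2, Oas1a and Oas1b were 4.78, 2.21 and 1.60-fold higher, all past the limma threshold. Oas1e, a family member outside the lists, had -0.25 and did not pass (limma adjusted p = 0.139). Of the IFIT family Ifit1 alone had a value here. Without the SCF term in the fit Ifitm2 did not pass (limma adjusted p = 0.0705). The largest differences among other effectors were those of Parp14, a mono-ADP-ribosyltransferase, at 4.67, and Rtp4 at 4.19.

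Of the factors that carry the interferon signal, Irf7, which amplifies interferon production and is itself induced by it, was higher by 2.89 (SE 0.26, limma adjusted p = 0.0018). Irf1 was higher by 0.89 and Irf5 by 0.43. Irf5 did not pass without the SCF term (limma adjusted p = 0.0905). Stat2, Irf9, Irf3 and Irf2 had 0.27, 0.27, 0.06 and -0.21 and did not pass (limma adjusted p from 0.118 to 0.724). With each array centred on its median Stat2 passed, at 0.39 (limma adjusted p = 0.0322). In all 6 of 13 signal transducers and IRF factors were called higher and none lower, with medians of 0.28 and 0.37. After cyclic loess or quantile normalization 2 were called lower, and without the SCF term 3 were called higher. None of the listed interferon genes had a value here, and of 4 receptor chains 3 were called lower and none higher, with medians of -0.72 and -0.43, but after cyclic loess 1 was called lower. All 7 interferon-inducible GTPases were called higher, with medians of 3.06 and 3.04, led by Gbp2 at 5.16. Of 11 MHC class I presentation genes 9 were called higher and none lower, with medians of 0.67 and 0.82, led by H2-D1 at 3.01. Of 11 negative regulators 2 were called higher, Usp18 at 4.03 and Socs1 at 2.27, and none lower, with medians of -0.19 and -0.11; after median centring 4 were called higher. No gene of the 7 lists was called for SCF, but the fit called 0 of all 6404 genes for SCF, so nothing is read from this.

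**Figure D3:**
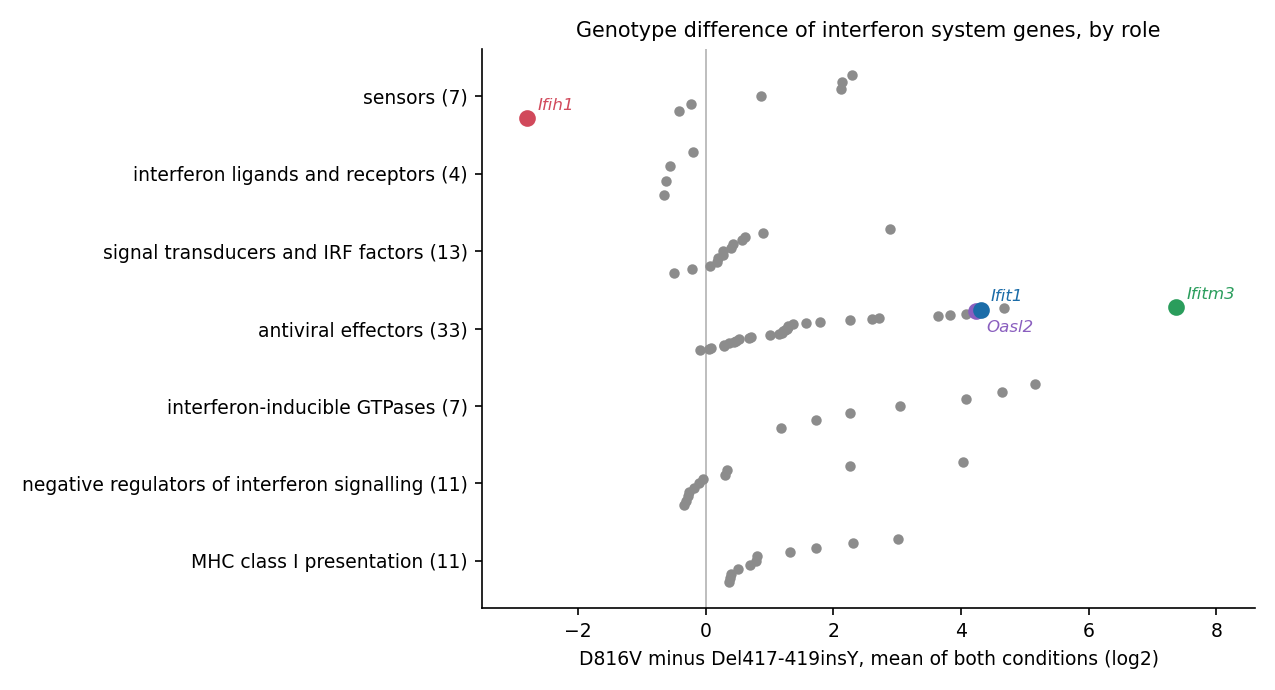
D816V minus Del417-419insY, mean of both conditions, on the log2 scale (horizontal axis) for the 86 interferon system genes by role (rows, with the number of genes), 1 point per gene and the 4 members coloured. Ifih1 at -2.80 is the lowest point of all rows, and Ifitm3 at 7.37 the highest.

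Markers of other cell types were read beside these values. Of 9 mast cell markers 7 were called higher and 1 lower in D816V cells, and their mean value was -0.16 and 0.82 in D816V cells with and without SCF, against -1.63 and -1.08 in Del417-419insY cells. Of 5 dendritic cell markers 4 were called higher and 1 lower (Bst2, called higher, is also in the effector list), with means of 0.45 and 0.48 in D816V cells with and without SCF, against -0.58 and -0.62 in Del417-419insY cells. Only 2 of 13 listed T and NK cell markers had a value, with means of 1.46 and 1.18 in D816V cells, against 0.19 and 0.05. Cd247 was called higher, at 2.31, and Nkg7, at 0.09, was not. Only 2 of 8 listed macrophage markers had a value, with means of -0.16 and 0.09 in D816V cells, against -1.11 and -0.91. These 2 went opposite ways: Cd68 was called higher, at 2.81, and Lyz2, at -0.86, did not pass (limma adjusted p = 0.0583). Of 5 progenitor markers 4 were called lower, with means of -1.91 and -1.39 in D816V cells, against -0.27 and -0.62. Kit, at -1.42, was in both this list and that of mast cells, where it was the 1 marker called lower, and it is also the gene introduced and sorted on. Without it 7 of 8 mast cell markers were called higher and none lower, and 3 of 4 progenitor markers were called lower. Relative values cannot show whether a marker is absent, and the part of such cells in the interferon genes was not tested.

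The genes next to each member on the chromosome were then read, at 5 positions on either side in the RefSeq order of protein-coding genes. The interval around Ifih1 on chromosome 2 stood out by size, which was already in view for Fap when this comparison was set up. Fap, the gene beside Ifih1, encodes fibroblast activation protein, a membrane protease, and Dpp4, 3 positions away, encodes its close relative dipeptidyl peptidase 4. Fap had values of -0.31 and 0.49 in D816V cells with and without SCF, against 6.29 and 6.14 in Del417-419insY cells. Dpp4 had -0.09 and 0.37 in D816V cells with and without SCF, against 3.27 and 2.73 in Del417-419insY cells. Like Ifih1, both were near zero in D816V and high in Del417-419insY cells.

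The mean difference was -6.12 for Fap and -2.86 for Dpp4 (SE 0.25, limma adjusted p = 0.00162), beside -2.80 for Ifih1. That of Fap is given without a test, as for the members, because its size was already in view. From the bottom of all 6404 genes Fap was at rank 2, Dpp4 at rank 19 and Ifih1 at rank 22. The remaining 8 of the 10 positions around Ifih1, Gcg between Fap and Dpp4 among them, had no value here. Whether position on the chromosome plays a part in these differences was not tested. With Ifih1, Fap and Dpp4 left out, 225 genes with a place in this order were 2-fold or more lower in both conditions. Of these 7 (3.11%) had at least 2 other such genes within 5 positions, against 65 of 6276 (1.04%) among all genes placed. That limit of 2 matches what was seen around Ifih1. With Ifih1, Fap and Dpp4 kept, 56 of 228 (24.6%) had at least 1 such neighbour, against 704 of 6279 (11.2%) among all genes placed. Related genes lying side by side were not set apart, so nothing is read from these shares. Fap and Dpp4 are proteases of 1 family and Ifih1 is unrelated to them.

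The genes beside the effectors were read in the same way. Of the 10 positions 2 had a value around Ifit1, 5 around Ifitm3 and 3 around Oasl2. The other IFIT genes beside Ifit1, and Oasl1 beside Oasl2, had none, so whether they follow the member is not known. Around Ifit1, Pank1 and Kif20b had mean differences of -0.75 and -0.80, opposite to Ifit1. Around Ifitm3, Ifitm1 at 1.28 was the 1 gene of 5 that was 2-fold or more higher in both conditions, and Pgghg and Ifitm2, at 0.54 and 0.47, were also called higher (limma adjusted p = 0.0316 and 0.0305), though not without the SCF term (0.0558 and 0.0705). Sigirr had 0.075, and B4galnt4 was opposite at -0.91, but at -0.38 after cyclic loess it did not pass (limma adjusted p = 0.123). Around Oasl2, Git2, Ankrd13a and Sppl3 had -0.71, -0.68 and -0.42. None of these neighbours had a difference near the size of that of the effector.

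**Figure D4:**
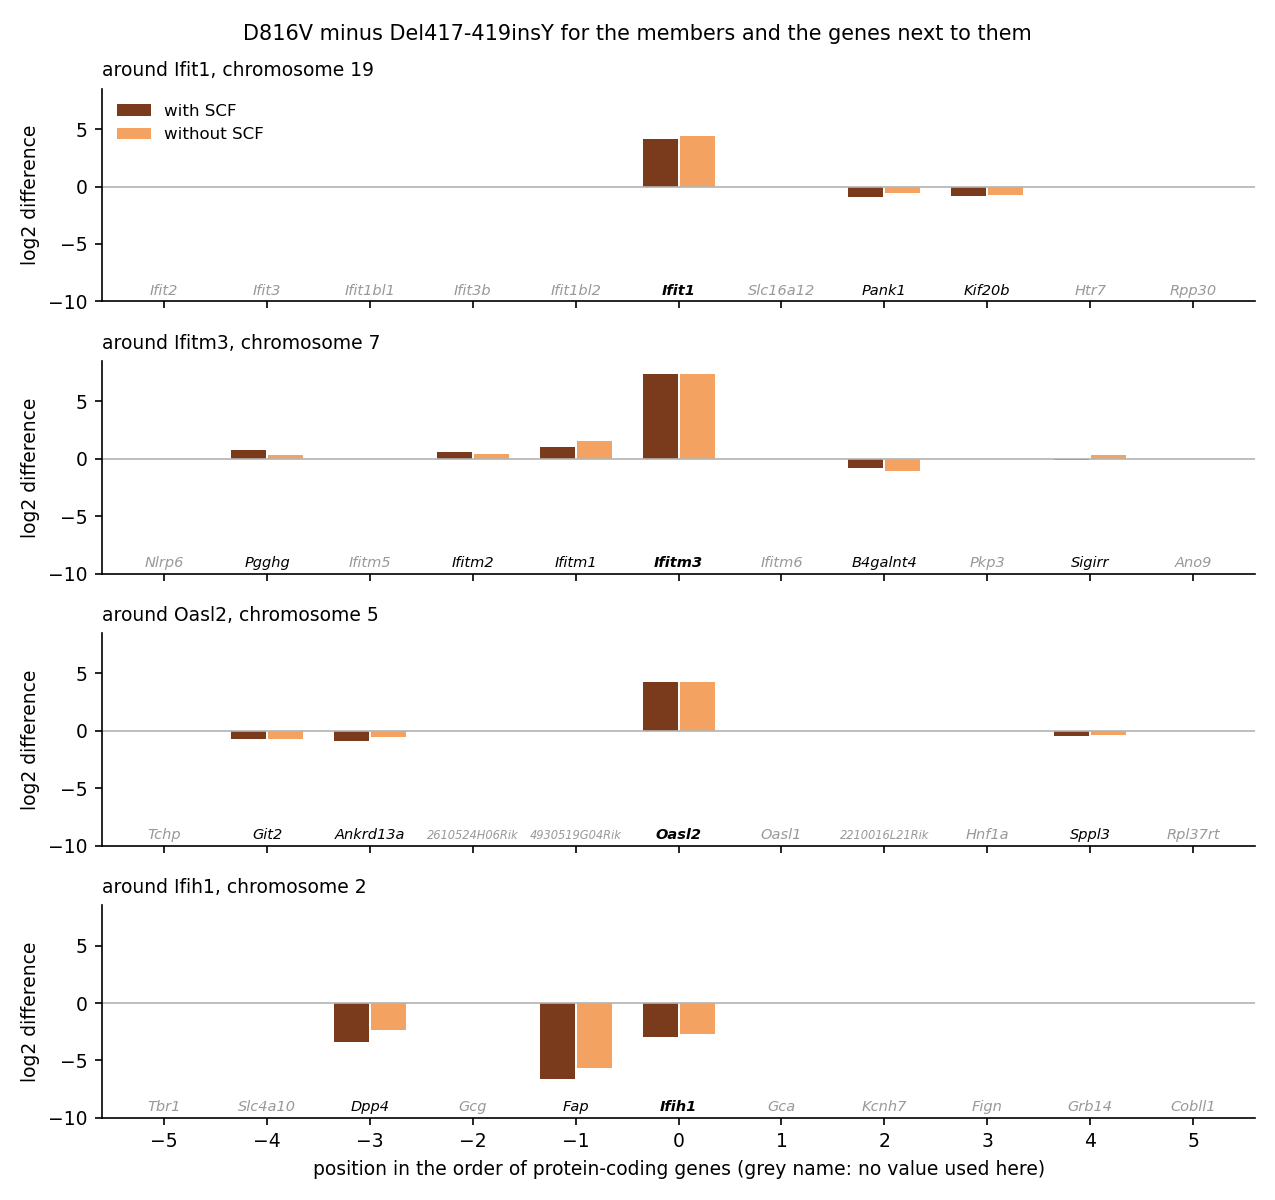
D816V minus Del417-419insY on the log2 scale (vertical axis) for each member, at position 0, and the 5 protein-coding genes on either side in RefSeq order (horizontal axis), dark bars with SCF and light bars without; genes in grey have no value here. Around Ifih1 the bars of Fap and Dpp4 point down with it. Beside Ifit1 and Oasl2, where 2 and 3 of 10 positions have a value, no measured neighbour follows the member.

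The genes nearest in pattern to each member were found by the Euclidean distance over the 4 arrays, after the mean of each gene was subtracted. For Ifih1 these were Themis, a T cell signalling gene, at 0.17, then Timp2, Adgrl2, Tlr12 and Scn11a at 0.32 to 0.43 on the log2 scale. None of these is in the interferon lists. Of the 2 measured chromosomal neighbours of Ifih1, Dpp4 was the 12th nearest of all genes, at 0.56, but Fap was at 3.42, rank 5612. Ddx58, with its opposite mutant difference, was at 4.94. For Ifit1 the nearest were Nhsl2 at 0.19 and Enah at 0.21, followed by the interferon-inducible GTPase gene Gbp7 at 0.31, Olfm3 and Nt5dc2. For Oasl2 they were Rab27b at 0.20, Poglut1 at 0.23, Gbp7 at 0.33, AB124611 and Armcx3. Ifit1 and Oasl2 were 0.48 apart, and Gbp7 was at rank 3 for both. For Ifitm3 the nearest was Akr1c12 at 0.13, and the next, Akr1c13, was at 0.80, followed by Trgv4, Gzma and Fcer1a at 0.83 to 1.42. Such likeness over 4 arrays mostly restates the size of the mutant difference.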

How the data were processed

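RNA of 4 cultures was hybridised to Affymetrix mouse arrays, 1 per group, per the labels' protocols. The deposited values were made by the authors with RMA, per the submitters' processing notes, and are taken as log2 although no source states the base. They are relative to an unstated level for each probe set. The table used here holds 10861 probe sets, by a filter not given in the sources used here. Symbols came from the platform annotation and were updated through RefSeq gene IDs (assembly GRCm38.p6). In it 9633 probe sets had 1 symbol, 264 several and 964 none, and those with several or none were left out. Probe sets of 1 gene were averaged, giving 6404 genes, 4203 of them with 1.

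Mutants were compared as D816V minus Del417-419insY, and SCF arrays with those without. The test was limma 3.58.1 in R 4.3.3, ~ mutant + SCF over all 4 arrays, two-sided, at a Benjamini-Hochberg adjusted p under 0.05 over 6404 genes, with 1 residual degree of freedom, a prior of 4.1 degrees of freedom and a prior SD of 0.127. It was tested on simulated data. The labels name no repeat cultures. Alternatives were 3 scalings (cyclic loess, quantile, median centring), the probe set with the highest mean, a filter at the 25th percentile, a fit without the other factor, an intensity trend and robust eBayes. Background correction and slide effects could not be tried on processed values.

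The genes named were the members, listed relatives and the leading genes of each list, the 5 nearest in pattern and the genes within 5 positions on the chromosome. The members and lists were chosen with earlier results of these data known.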

Additional observations from a re-analysis of the deposited data

Results flagged for a closer look

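With 1 array per group, no gene could be checked for a sample far from its group, and no difference between the lines in their SCF response was tested. Of 29 genes examined, the members, their listed relatives and their measured chromosomal neighbours, 15 had values of opposite sign in the lines or conditions compared. None of the 4 members did. The SCF difference in D816V minus that in Del417-419insY cells was 1.23 for Oas3, 1.07 for Irf7, 0.53 for Ddx58, 0.47 for Oas2, 0.35 for Pgghg, 0.17 for Oas1e and 0.084 for Oas1a. It was -1.01 for Dpp4, -0.94 for Fap, -0.70 for Irf9, -0.43 for Sigirr, -0.36 for Irf1 and -0.14 for Oas1b. The mutant difference with SCF minus that without was 0.57 for Irf2, -0.31 for Irf3, -0.70 for Irf9 and -0.43 for Sigirr. For Oas3 the SCF difference was 0.01 in D816V and -1.22 in Del417-419insY cells, and for Irf7 it was 0.41 and -0.67. Dpp4 had -0.46 and 0.55 and Fap -0.80 and 0.15, while Ifih1 beside them had 0.32 and 0.61. These differences were not tested.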

How the results depend on the processing

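No paired analysis was possible because each group held 1 array, and no replicate could be left out. No direction of a mutant difference of the members turned under the 3 scalings, but sizes moved by over 1.5-fold, and the cause was not tested. Median centring shifts all genes of an array alike and moved none that far. The highest-mean probe set could not change a member, since each had 1 probe set. With SCF and without it, cyclic loess gave 2.43 and 2.73 for Ifit1 and 2.47 and 2.51 for Oasl2. It gave 7.64 and 7.61 for Ifitm3 and -3.96 and -3.66 for Ifih1. Quantile normalization gave 3.47 and 3.60 for Ifit1, 6.14 and 5.98 for Ifitm3, 3.56 and 3.40 for Oasl2 and -3.73 and -3.51 for Ifih1. The gap between Ifih1 and the nearest effector was -6.39 and -6.17 after cyclic loess. That scaling moved the median mutant difference of all genes with SCF to 0.04, against -0.14 as deposited. Averaged over conditions, cyclic loess gave -3.92 for Dpp4 and -9.18 for Fap, and quantile normalization -3.75 and -7.19. The SCF difference of Oasl2 turned to 0.016 after cyclic loess and 0.0039 after quantile normalization. None of the 4 members was called for SCF under any of the settings run: limma adjusted p ranged from 0.0589 to 1 for Ifih1, 0.0911 to 1 for Ifit1, 0.139 to 1 for Ifitm3, for which the 25th percentile filter gave no value, and 0.661 to 1 for Oasl2. Over all genes limma called for SCF 42 after cyclic loess, 2 after quantile normalization, 256 after median centring, 256 with the highest-mean probe set and 10 with an intensity trend. A fit with no SCF term called 690 genes higher and 913 lower for D816V. Of the counts in the 7 lists, members left out, 14 of 112 differed by over 1.5 times from those reported. Signal over background could not be examined.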
